A study of Homo sapiens with 4 samples.

Results

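The transcripts described here are those whose array identifiers begin with TC07, a prefix read as chromosome 7. The deposited table listed 3320 such identifiers, of which 65 were dropped because their values on all 4 arrays repeated those of another identifier, leaving 3255 distinct rows. The 609 rows with a mean log2 signal of at least 6 over the 4 arrays (18.7%) are the members, out of 10887 bright identifiers on 20 chromosomes and 60789 identifiers in the table. The other 2646 chromosome 7 rows were dimmer. The members were followed in order of the running number inside the identifier, in 15 windows of 40 or 41, and a window was called higher when its median on each array labelled STMN1 exceeded that on each array labelled vector, which makes 4 array comparisons. Just inside the signal limit stood LINC03009, with a mean of 6.02 and a deposited difference (labelled STMN1 minus labelled vector) of 0.17, and just outside it stood an identifier without a gene, with a mean just under 6 and a deposited difference of -0.28.

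The study used KYSE 170, an established cell line from a human esophageal cancer, and asked how gene expression differs when stathmin is overproduced. The 2 arrays labelled STMN1 came from cells stably transfected with the plasmid pCMV6 holding the full-length STMN1 cDNA, and the 2 arrays labelled vector from cells transfected with pCMV6 alone. Both groups went through Lipofectamine 2000 and selection with G418 at 200 µg/ml, and each array was hybridised with Cy3-labelled RNA made from 0.2 µg. The labels speak of stable clones and of biological repeats without saying whether the arrays of a group come from separate clones or cultures, so any spread between them may be that of 1 clone.

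Chromosome 7 is a mid-sized human chromosome whose centromere divides it into a short and a long arm. The short arm carries, among others, the gene for the growth factor receptor EGFR, the beta-actin gene ACTB and a cluster of HOX genes, and the long arm carries the receptor gene MET. Gains of chromosome 7 material are common in epithelial tumours, and EGFR is often amplified in esophageal squamous cell cancer. Where cells carry more copies of a chromosome segment, the transcripts of its genes are often, on average, more abundant, which is why expression can be followed along a chromosome; DNA copies were not measured here. Stathmin, the product of STMN1, binds tubulin and destabilises microtubules, on which chromosome segregation depends.

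Promoters are printed for 3 short-arm genes on which the description turns: UPP1 and MRM2, the members that were higher by the widest margin in the runs, and MACC1, the short-arm member among the named lower genes. Each line gives the 300 bases from 250 before to 50 after the start of the gene, from RefSeq on GRCh38.p14. Capitals mark matches on either strand to TATAAA (the TATA box), to CCAAT (the box of that name) and to GGGCGG (the GC box), and a match is a description of letters, not a binding site. The UPP1 promoter lies at chr7:48089004-48089303 on the plus strand. The MRM2 promoter lies at chr7:2242156-2242455 and that of MACC1 at chr7:20217335-20217634, both on the minus strand.
UPP1: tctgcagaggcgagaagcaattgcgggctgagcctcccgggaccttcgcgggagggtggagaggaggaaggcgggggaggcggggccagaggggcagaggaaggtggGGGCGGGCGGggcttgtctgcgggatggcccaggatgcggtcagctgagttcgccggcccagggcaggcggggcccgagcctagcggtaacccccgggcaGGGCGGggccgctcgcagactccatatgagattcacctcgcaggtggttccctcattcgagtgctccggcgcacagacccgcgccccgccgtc
MRM2: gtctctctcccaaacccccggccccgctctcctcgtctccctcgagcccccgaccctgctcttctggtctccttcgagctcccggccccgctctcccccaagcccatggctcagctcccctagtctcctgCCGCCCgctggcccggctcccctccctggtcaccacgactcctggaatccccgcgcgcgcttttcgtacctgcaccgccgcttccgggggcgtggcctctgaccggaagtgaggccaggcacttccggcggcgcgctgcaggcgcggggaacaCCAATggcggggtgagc
MACC1: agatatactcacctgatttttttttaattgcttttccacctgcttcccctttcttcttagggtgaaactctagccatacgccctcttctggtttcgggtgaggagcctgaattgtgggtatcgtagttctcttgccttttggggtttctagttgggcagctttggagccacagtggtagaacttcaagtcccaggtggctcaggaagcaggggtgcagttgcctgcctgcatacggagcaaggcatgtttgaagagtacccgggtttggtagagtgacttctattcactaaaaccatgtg
The UPP1 stretch held 3 matches to GGGCGG, of which a pair overlap, and the MRM2 stretch held 1 to GGGCGG and 1 to CCAAT, while these letters did not occur in the MACC1 stretch. Over the 85 short-arm members with a promoter in the RefSeq table, 68.2% held GGGCGG, 32.9% held CCAAT and 2.35% held TATAAA. The 163 long-arm promoters gave 74.8%, 36.2% and 3.68%, and all 27305 promoters of the table gave 44.6%, 35.7% and 12%. The median GC content was 66% for the short arm, 66.7% for the long arm and 58.3% for all promoters. Promoters of bright chromosome 7 genes on both arms were thus close to each other in these letters, and both were richer in GC than the table as a whole.

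The labels were checked first. The identifier assigned to STMN1, which the annotation shares with the microRNA gene MIR3917, had log2 signals of 5.86 and 5.77 on the arrays labelled STMN1 and 6.11 and 6.13 on those labelled vector. It was lower by 0.30 on the log2 scale where overproduction is labelled, which goes against the label. Where its probe lies relative to the transfected cDNA is not known, so it does not settle which arrays carry the transgene, and every direction below follows the labels. Of 8 epithelial markers 7 were measured, 6 of them with signals of at least 6 on all arrays, and the summed log2 level of the list was 16.14 to 16.88 on the arrays labelled STMN1 and 16.94 to 17.11 on those labelled vector. The sum counts both identifiers named KRT8, 1 of which carries a chromosome 8 prefix. KRT5, a basal keratin, had 6.25 and 7.23 against 9.01 and 8.56. KRT14, KRT8, EPCAM and CDH1 were also lower without overlap. The groups overlapped for KRT18, with 14.64 and 15.17 against 15.10 and 15.17, and for SOX2, with 9.18 and 10.20 against 9.78 and 9.74. None of 4 fibroblast markers and 1 of 4 leukocyte markers (CD68, also found in lysosomes of other cells) reached 6 on all arrays, while the pan-leukocyte gene PTPRC lay between 3.29 and 3.51 and the mesenchymal gene VIM between 3.22 and 3.31. The part of the keratin difference in the chromosome 7 pattern was not tested. Array medians lay between 3.6 and 3.72, the table carried no detection calls, and 4 arrays limit the precision.

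Along the running number, 8 of the 15 chromosome 7 windows (53.3%) were higher in all 4 array comparisons, 2 were lower in all 4, and 5 were neither. Over the 272 windows of all 20 chromosomes, 29.4% were higher and 23.2% were lower. On the deposited values without centring, only the windows 213 to 398, 972 to 1192 and 1194 to 1363 were higher in all 4 comparisons (3 of 15) and 0 were lower, so the other 5 higher windows and both lower ones rest on the centring described next. Because the pattern of this contrast is what drew attention to the chromosome, these counts are given without a test, and they say only where the differences lie. Window medians are on a log2 scale on which each member was taken relative to its own mean and the median of all bright identifiers was then set to 0 on every array. Each array holds RNA of a whole cell population, so more cells with a transcript and more RNA per cell cannot be told apart.

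The 8 higher windows formed 5 runs holding 325 members. The first run, numbers 11 to 398, held 2 windows and 82 members and stretched from DNAAF5, a dynein assembly factor gene, to the pseudogene CCT6P1. Its first window had medians of 0.10 and 0.06 on the arrays labelled STMN1 and -0.09 and -0.04 on those labelled vector, and its second had 0.07 and 0.15 against -0.11 and -0.11. The window differences were 0.14 and 0.22, and the 4 array comparisons ran from 0.10 to 0.26.

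The second run was the longest, with 3 windows and 123 members from number 972 to number 1551. Its windows had medians of 0.14 and 0.10 against -0.12 and -0.08, of 0.19 and 0.07 against -0.13 and -0.04, and of 0.07 and 0.07 against -0.13 and -0.03. The differences were 0.22, 0.22 and 0.15, and the array comparisons ran from 0.11 to 0.32. The groups did not overlap in any of these windows, and both replicates of a group stood on the same side of 0.

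Each of the other 3 runs was a single window with a smaller difference. Numbers 2045 to 2332 gave 0.14, with array comparisons of 0.13 to 0.15, numbers 2575 to 2998 gave 0.11, with 0.05 to 0.16, and numbers 3305 to 3405 gave 0.10, with 0.08 to 0.12. The window from 2575 to 2998, none of whose members has a gene, was the one closest to the limit on the inside, and the window from 520 to 718, with a smallest comparison of -0.01, was the closest on the outside. The 2 lower windows covered numbers 722 to 969, at -0.12, and 1738 to 2040, at -0.04. Between the 2 arrays of a group, windows differed by up to 0.11 for STMN1 and up to 0.20 for vector, with medians of 0.04 and 0.06. The 3 single-window runs lie within the range of differences seen inside the vector group. So do the first window of the first run (0.14) and the last window of the second run (0.15).

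**Figure D1:**
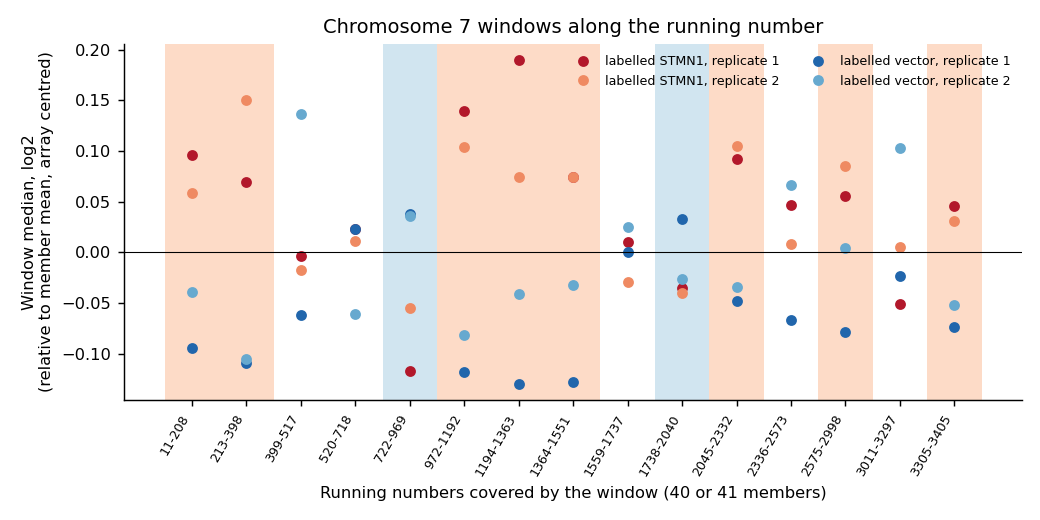
Median log2 value of each array in the 15 windows of chromosome 7 members along the running number, relative to each member's mean and centred per array; orange bands mark windows higher and blue bands windows lower in all 4 array comparisons. The windows from 972 to 1551 stand together, with both arrays labelled STMN1 between 0.07 and 0.19 and both arrays labelled vector below 0.

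Single members in the runs followed the same direction more often than not, as the choice of the runs requires. Groups were without overlap and higher on the arrays labelled STMN1 for 33 members of the first run and lower for 5. The second run had 54 higher and 10 lower, and the 3 single-window runs had 14 and 2, 11 and 3, and 15 and 4. Over all 609 members, 175 were higher without overlap (28.7%) and 91 were lower (14.9%), against 21.4% higher and 20.9% lower among all bright identifiers. A further view is the sign alone: 368 members (60.4%) had a difference above 0, against 51.4% of all bright identifiers.

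The profile along the running-number windows was alike in array pairs that share no array. Over the 15 windows, the differences of the replicate 1 arrays and of the replicate 2 arrays correlated at r = 0.70 (rho = 0.81), and the crossed pairs at r = 0.77 (rho = 0.81). Differences between replicates inside the groups correlated at r = -0.16 (rho = -0.30) along the same windows. For chromosome 1 the figures were r = 0.82 and 0.86 over 31 windows, and for chromosome 3 r = 0.59 and 0.45 over 16. Windows of a chromosome share their arrays and their neighbours, so these correlations are descriptions without a test.

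What the running number stands for could be read from gene names, which the rule did not use. The platform annotation gave 1 gene for 339 members, several for 25 and none for 245. RefSeq placed 334 of the named members (54.8% of all members, 333 genes) on chromosome 7 and 3 on another chromosome, and 2 were not matched. The arms were divided at the widest stretch of the chromosome without a RefSeq gene, which holds the centromere, and this gave 122 short-arm and 212 long-arm members.

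Genes ran along the chromosome more than once as the running number increased. In the first block, numbers 11 to 1055, 157 of 220 members were placed, 155 of 156 neighbouring pairs were in gene order, and of those with a known strand 119 lay on the plus strand and 1 on the minus strand. The second block, numbers 1073 to 2084, repeated the walk for the other strand, with 145 of 196 members placed, 144 of 144 pairs in order, 0 on the plus strand and 106 on the minus strand. A stretch of 147 members from 2091 to 3277 had no placed gene, and the last block, 3287 to 3405, held 32 placed genes of both strands with 26 of 31 pairs in order. Short-arm members ended at number 341 in the first block and at 1408 in the second, so the first run and most of the second run are the starts of the 2 walks. All 122 short-arm members lay in runs: 51 in the first, 59 in the second and 12 in the run that ends at number 3405. The second run also held 35 long-arm members, of which those at its start close the walk of the first block. The run from 2045 to 2332 held 0 short-arm and 4 long-arm placed members, and its other members were not assigned an arm.

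Among the members placed by gene name, the difference between the groups lay mainly on the short arm. The median of its 122 members was 0.14 and 0.11 on the arrays labelled STMN1 and -0.14 and -0.09 on those labelled vector. All 4 comparisons were positive, from 0.21 to 0.28, and the difference of 0.24 corresponds to 1.18-fold. The 212 long-arm members had medians of -0.00, 0.00, -0.00 and -0.00 on the same 4 arrays, with a difference of 0.0033 and comparisons from 0.00 to 0.01. That narrow range depends on the centring. On values not centred, the comparisons ran from -0.15 to 0.13 on the long arm and from 0.09 to 0.37 on the short arm. The short-arm median minus the long-arm median was 0.14, 0.11, -0.13 and -0.09 on the 4 arrays, a difference of 0.24 with comparisons from 0.20 to 0.28. That arm contrast is the same array by array whatever value an array is centred on. For 2 arrays against 2, the smallest two-sided exact permutation p is 0.333, so no exact test could reach 0.05 here, and none is given because the same contrast chose the chromosome.

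Member by member, the arms differed in how many shared the direction. On the short arm 102 of 122 members (83.6%) had a difference above 0, with quartiles at 0.09 and 0.53, and on the long arm 112 of 212 (52.8%), with quartiles at -0.14 and 0.15. Groups without overlap were higher for 68 short-arm members (55.7%) and lower for 5 (4.1%), against 21.4% and 20.9% of all bright identifiers. The long arm had 38 higher and 38 lower (17.9% each). The median signal of the arms was close, 8.27 for the short and 7.93 for the long arm.

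The short-arm difference was present in each of the 3 stretches of running numbers that hold its genes. It was 0.17 in the first block (51 members), 0.27 in the second (59) and 0.36 in the last (12), with array comparisons from 0.14 in the first to 0.41 in the last. By strand, the 43 plus-strand members gave 0.17 and the 42 minus-strand members 0.32, with comparisons of 0.12 to 0.22 and 0.31 to 0.33. Long-arm members gave -0.00, -0.00 and 0.03 in the 3 blocks. Members without a placed gene stood between, at 0.06 for the 147 of the unnamed block and 0.04 for the 245 without a gene. These sets share members. The array comparisons ran from 0.02 to 0.09 in the unnamed block and from -0.0026 to 0.09 among the 245. The arm of the unnamed block is not known. Members without a gene in the other blocks were not assigned an arm, although most placed neighbours there were in gene order. The arm values therefore leave these members out.

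**Figure D2:**
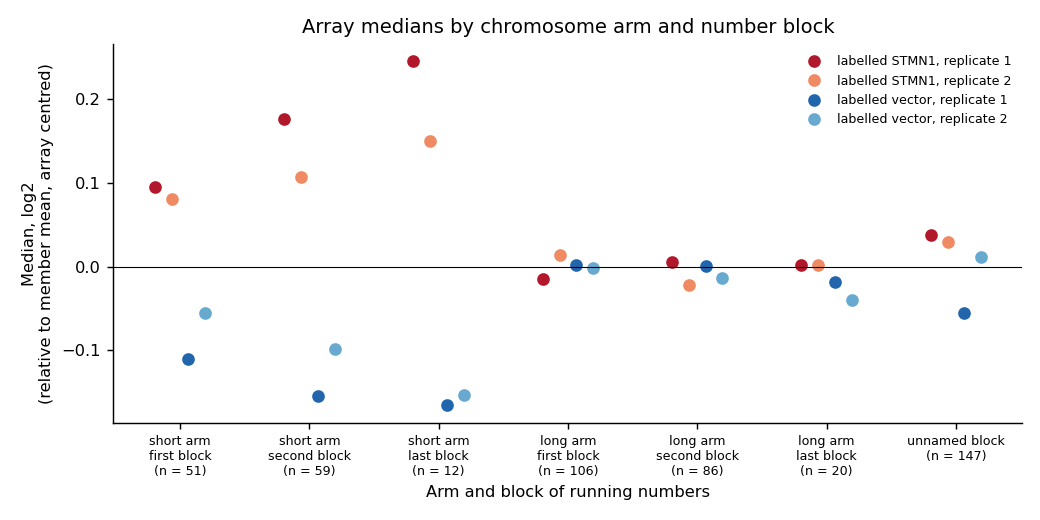
Median log2 value of each array, relative to each member's mean and centred per array, for short-arm and long-arm members in the 3 blocks of running numbers with placed genes, and for the unnamed block. In all 3 short-arm sets both arrays labelled STMN1 lie above 0.08 and both arrays labelled vector below -0.05, whereas the long-arm sets stay within 0.04 of 0.

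Placed in RefSeq gene order rather than by number, the members formed 20 windows of 16 or 17. Of these, 10 were higher in all 4 comparisons and 3 lower, against 28.2% higher and 23.4% lower among 397 such windows of the table, and 5 were higher without centring. Of 7 windows wholly on the short arm 6 were higher, and of 12 wholly on the long arm 3 were higher and 3 lower. The seventh short-arm window, from PALS2 to GARS1, had a difference of 0.12 with comparisons from -0.03 to 0.27, because the second array labelled STMN1 stood at -0.03, below 1 of the vector arrays. Over the 20 windows, the replicate 1 and replicate 2 differences correlated at r = 0.63 (rho = 0.43). The crossed pairs gave r = 0.74 (rho = 0.59). These rank correlations are weaker than along the running number, and they too are descriptions without a test.

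The highest window lay at the end of the short arm. From the growth factor gene PDGFA to ACTB, its 17 members had medians of 0.34 and 0.27 against -0.28 and -0.28, a difference of 0.58 with comparisons from 0.54 to 0.62. It was the highest of the 397 gene-order windows, and 13 of its 17 members were higher without overlap, against 21.4% of all bright identifiers. A second peak lay next to the centromere, where the window from ZMIZ2 to PSPH had 0.23 and 0.31 against -0.27 and -0.09, a difference of 0.45, again with 13 of 17 members higher without overlap.

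Between these ends the short arm was lower but on the same side. The windows FSCN1 to VWDE, ANKMY2 to TRA2A and AVL9 to CDK13 gave 0.17, 0.13 and 0.16, and MPLKIP to OGDH gave 0.31. On the long-arm side, the mixed window CCT6A to TYW1, with 3 short-arm and 14 long-arm members, gave 0.20. Its neighbour PMS2P4 to EIF4H, wholly on the long arm, gave 0.14. The first 10 long-arm members by themselves had a median of 0.03, so these windows do not show where the higher values end. Farther along the long arm, windows ran between -0.11 and 0.07. The 3 lower ones were neighbours, LINC01000 to SLC35B4 at -0.08, AKR1B10 to TRBJ2-2P at -0.06 and GSTK1 to ZNF212 at -0.11.

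**Figure D3:**
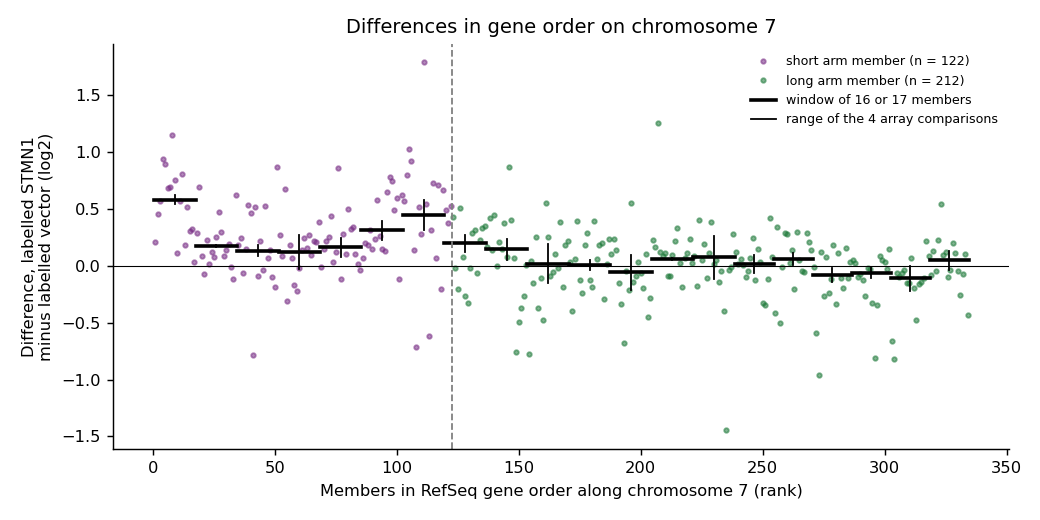
Difference (labelled STMN1 minus labelled vector, log2) of the 334 placed members in RefSeq gene order, with the dashed line at the centromeric gap; thick bars are windows of 16 or 17 members and thin bars the range of the 4 array comparisons. The windows stand at 0.58 at the start of the short arm and 0.45 near its centromeric end. From the second window after the one that the line crosses, they lie between -0.11 and 0.07.

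Members on both sides of the centromeric gap were read one by one, because the arms meet there. Of the last 10 short-arm members 8 had a difference above 0, 6 were higher without overlap and 1 was lower, with a median of 0.43. Among all bright identifiers, 21.4% were higher and 20.9% lower without overlap. EGFR, the epidermal growth factor receptor gene, had signals of 11.58 and 11.64 against 11.06 and 11.55, a difference of 0.32 after centring. LANCL2, a neighbour of EGFR often amplified with it in gliomas, had 7.05 and 7.36 against 6.36 and 6.60, a difference of 0.73. PSPH, the phosphatase that completes serine synthesis, had 10.63 and 10.90 against 9.79 and 10.44, a difference of 0.66. In all 3 genes each array labelled STMN1 exceeded both arrays labelled vector, for EGFR by a narrow margin.

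Other genes of this stretch did not all share the direction. CCT6A, a subunit of the chaperonin that folds actin and tubulin, differed by 0.49 and MRPS17, a mitochondrial ribosomal protein gene, by 0.71. CHCHD2, a mitochondrial regulator, differed by 0.53, but its groups overlapped, with 13.17 and 13.65 against 13.17 and 12.62 as deposited. The small nuclear RNA pseudogene RNU1-14P was lower, at -0.62, and NIPSNAP2, a mitochondrial protein gene, had -0.21 with overlapping groups.

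Across the gap, the first 10 long-arm members had a median of 0.03, with 5 above 0, 3 higher without overlap and 3 lower. The shares over all bright identifiers were 21.4% higher and 20.9% lower. GUSB, the lysosomal enzyme beta-glucuronidase often used as a reference gene, had 9.56 and 9.63 against 9.97 and 9.90, a difference of -0.32. VKORC1L1, a vitamin K epoxide reductase, differed by -0.26, and TPST1, a tyrosine sulfotransferase, by 0.32. The pseudogenes CCT6P1 and CCT6P3, at 0.51 and 0.43, share sequence with the short-arm gene CCT6A, and INTS4P1 and INTS4P2, at -0.02 and -0.21, with INTS4, so their signals may mix with those of their parent genes.

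Transcripts too dim for the limit of 6 were not used in the rule, though they come from the same arrays. In each class of signal, values were centred on all identifiers of that class. Short-arm rows with a mean from 5 to under 6 (39 rows) differed by 0.21, with comparisons of 0.17 to 0.24, and 59% were higher without overlap against 18.8% of all identifiers of that class. The 72 long-arm rows of the class differed by -0.01, and 20.8% were higher. The difference was 0.11 for the 32 short-arm rows from 4 to 5 and 0.01 for the 141 below 4, where signals lie near the median of the whole table. Over all dim rows, 26.4% of 212 on the short arm and 16.7% of 498 on the long arm were higher, against 15.7% of all identifiers with a mean under 6.

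Among the members, the short-arm difference was 0.25 for signals from 6 to 8 (53 members), 0.20 from 8 to 10 (35), 0.38 from 10 to 12 (19) and 0.15 above 12 (15). Long-arm values in these classes ran from -0.03 to 0.03. By running number alone, without gene names, the 126 rows of the 5 to 6 class inside the runs differed by 0.09 and the 124 outside by -0.02. Of these, 32.5% and 17.7% were higher without overlap.

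**Figure D4:**
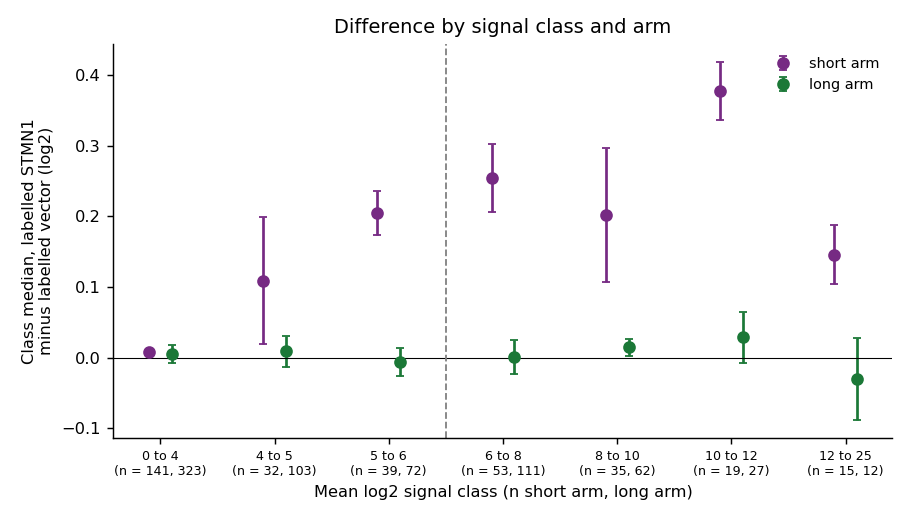
Difference between the groups (log2, class median, centred within the class) for short-arm and long-arm rows by mean log2 signal; bars span the 4 array comparisons and the dashed line marks the limit of 6 used for members. Short-arm rows lie at 0.01 below a signal of 4 and at 0.11 to 0.38 above it, and long-arm rows lie between -0.03 and 0.03 throughout.

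The members that differed by the widest margin were named by a rule: the 10 members with 1 gene in the runs, and the 10 with 1 gene anywhere that were lower, whose smallest of the 4 array differences was farthest from 0. Of the 10 higher ones 9 lie on the short arm, and of the 10 lower ones 1 does. Only the higher ones had to come from the runs, which held all 122 short-arm members but a minority of the 212 long-arm ones. The split by arm therefore follows in part from the rule and is not a separate result. The higher differences ranged from 0.70 to 1.79. Ranking by the smallest array difference selects members whose groups are apart, so the separation described for each gene below is a product of the choice.

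UPP1 stood first. It encodes uridine phosphorylase, which splits uridine into uracil and a sugar phosphate and so feeds uridine into salvage and energy metabolism. Its signals were 9.15 and 8.45 on the arrays labelled STMN1 and 6.84 and 7.20 on those labelled vector, a difference of 1.79 after centring, or 3.46-fold. The arrays of each group differed among themselves, yet the lower array labelled STMN1 stayed well above both labelled vector.

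MRM2, a methyltransferase for mitochondrial ribosomal RNA, had 9.19 and 9.60 against 8.21 and 8.31, a difference of 1.15. EIF3B, a scaffold subunit of the translation initiation factor eIF3, had 7.45 and 7.62 against 6.70 and 6.89, a difference of 0.76. For both genes, arrays of a group lay nearer to each other than to those of the other group. The 2 arrays labelled STMN1 stood apart for MRM2, whose difference was 1.30 without STMN1 replicate 1 and 0.99 without STMN1 replicate 2.

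SNORA5A, a small nucleolar RNA of the class that guides pseudouridylation, had 10.70 and 10.41 against 9.48 and 9.61, a difference of 1.03. TRA2A, a splicing regulator, had 10.74 and 10.48 against 9.63 and 9.88, a difference of 0.87. For both, the arrays of a group lay closer together than the groups did.

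GET4, part of the machinery that hands tail-anchored proteins to the endoplasmic reticulum, had 7.64 and 7.83 against 6.66 and 6.95, a difference of 0.94. PSMG3, a chaperone of proteasome assembly, had 9.37 and 9.45 against 8.63 and 8.82, a difference of 0.70. YKT6, a SNARE protein of membrane fusion, had 8.34 and 8.45 against 7.67 and 7.65, a difference of 0.75. None of these 3 genes showed an overlap between the groups, as the rule that named them required.

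GNA12, the alpha subunit of a G protein that signals to the GTPase RhoA, had 8.52 and 8.34 against 7.59 and 7.67, a difference of 0.81. The long-arm gene of the list was DNAJC30, a mitochondrial J-domain protein, with 8.87 and 9.09 against 8.13 and 8.12, a difference of 0.87. Its place is in the gene-order window next to the one that joins the arms.

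The lower members were mostly long-arm genes. MIR4653, a microRNA gene, had 6.87 and 7.02 on the arrays labelled STMN1 and 8.23 and 8.59 on those labelled vector, a difference of -1.45, and which transcript of the locus the probe reads is not known. ZC3HAV1, the zinc-finger antiviral protein that binds CpG-rich RNA, had 6.87 and 7.57 against 7.98 and 8.11, a difference of -0.81. TMEM139, a transmembrane protein gene, had 6.19 and 6.35 against 7.06 and 7.15, a difference of -0.82. All were lower on both arrays labelled STMN1, for ZC3HAV1 with a wide gap between the replicates: its difference was -0.51 without STMN1 replicate 1 and -1.11 without STMN1 replicate 2.

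CLDN4, a tight junction protein of epithelia, had 7.61 and 7.67 against 8.17 and 8.12, a difference of -0.49. LAMB1, a laminin chain of basement membranes, had 9.26 and 9.41 against 9.63 and 10.08, a difference of -0.50. The mitochondrial carrier gene SLC25A40 and the glutathione transferase gene GSTK1 differed by -0.68 and -0.66.

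On the short arm, MACC1 was lower while the gene-order window that spans its place was higher. MACC1 is a regulator associated with metastasis that is known to activate transcription of MET. Its signals were 6.34 and 6.44 against 7.08 and 7.29, a difference of -0.78. The remaining 2 lower identifiers carry the names of MIR548F3 and MIR548I4, at -1.06 and -0.79, but RefSeq places those genes on chromosomes 5 and X, so the names are uncertain and the values belong to chromosome 7 identifiers without a settled gene. A single array weighed on both: the difference of MIR548F3 was -0.65 without STMN1 replicate 2, and that of MIR548I4 was -0.44 without vector replicate 2.

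**Figure D5:**
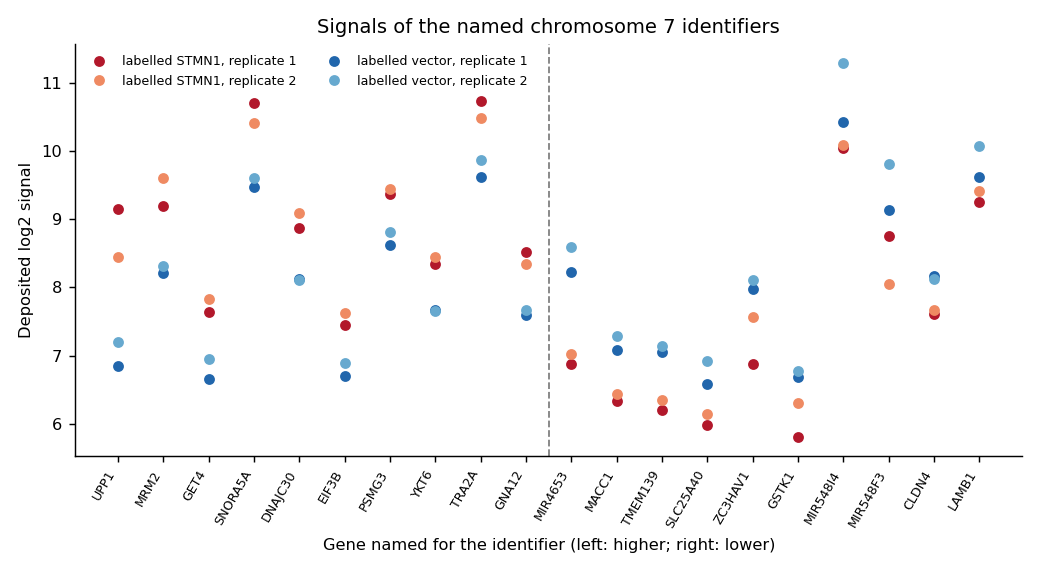
Deposited log2 signals of the 20 named chromosome 7 identifiers on the 4 arrays, with the higher ones left and the lower ones right of the dashed line. Red points (labelled STMN1) lie above blue points (labelled vector) for all 10 on the left, from UPP1 to GNA12, and below them for all 10 on the right. The rule that named the identifiers selected for this separation.

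A list of genes chosen for their roles gave a different picture from the leading members. Of its 19 genes, 16 had an identifier, and 3 were not analysed here. EGFR, at 0.32, was the only one of its bright chromosome 7 genes above the short-arm median. On the long arm, the receptor MET differed by 0.14, the histone methyltransferase EZH2 by 0.07 and the caveolae protein CAV1 by 0.03. On the short arm, the GTPase RAC1 differed by 0.07, the mismatch repair gene PMS2 by 0.09 and ACTB by 0.04. An identifier that HOXA9 shares with other genes differed by -0.02. It names several genes and was therefore not placed, although the HOX cluster named above lies on the short arm. GAPDH, the glycolytic enzyme on chromosome 12, differed by 0.04 and serves as a reference.

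RAC1, for instance, had signals of 13.88 and 13.88 against 13.80 and 13.84, so a short-arm position did not bring every gene a difference of the median size. CDK6, IL6, TWIST1, SP8, ABCB1 and SMO had mean signals under 6 and were not members.

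Read gene by gene, limma's moderated test called none of the 609 members at a Benjamini-Hochberg adjusted p under 0.05, either higher or lower, against 0% of the 45592 identifiers tested. The smallest adjusted p of a member was 0.601 in limma. At an unadjusted p under 0.05, limma gave 53 higher and 22 lower members, where 5.5% and 7.18% of all bright identifiers passed. The 95% interval of a member reached a median of 0.49 to either side, wider than the short-arm median, so most single genes could not be separated from 0. Since the chromosome was chosen on this contrast, these counts describe the precision and test nothing.

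Among 20 chromosomes, the median of all chromosome 7 members, 0.07 with comparisons of 0.04 to 0.11, had rank 3. Chromosome 3 was at 0.13, with 14 of 16 windows higher (87.5%). Chromosome 19, at rank 2, was at 0.10 with comparisons from -0.04 to 0.24, and 4 of its 13 windows were higher (30.8%). Chromosome 9, at rank 4, was at 0.07, with 10 of 12 windows higher (83.3%). Chromosome 1 was at -0.27, with 25 of 31 windows lower. Chromosome 7 thus had a smaller share of higher windows than chromosomes 3 and 9 and a larger one than chromosome 19. Its median was below those of chromosomes 3 and 19 and close to that of chromosome 9. The placed chromosome 7 members stood at 0.24 on the short arm and 0.0033 on the long arm. Whether the other chromosomes divide by arm was not examined.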

How the data were processed

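Log2 signals from 4 single-colour arrays were used as deposited by the authors. The submitters' processing notes name Agilent Feature Extraction 10.7.1.1, while the sources used here name no background correction, normalization, spot summary or genome build. The identifiers have the form of Affymetrix transcript clusters, whereas the labels describe Agilent labelling and software, so how a row was made from spots is not known. A log2 scale fits their span of 1.64 to 19.93. Samples were grouped by their titles. Reading characters 3 and 4 of an identifier as its chromosome was checked against gene names of the platform annotation placed by RefSeq (GRCh38.p14), whose table gives names, order and arms only.

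Rows identical on all arrays were counted once and a mean of at least 6 was required. Members, windows, gene lists and arms were chosen with earlier results of these data known. Each identifier was taken relative to its mean and each array centred on the median of 10887 bright identifiers. Values are medians per array, and a difference is the mean of the arrays labelled STMN1 minus that of the arrays labelled vector. The range of the 4 array comparisons is given beside it. These comparisons reuse the same 4 arrays, so the range is not an estimate of error. Named genes are the 10 members per side with 1 gene whose smallest array difference was farthest from 0 (higher ones from the runs, lower ones from anywhere), plus 19 listed genes.

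limma 3.58.1 in R 4.3.3 (lmFit, eBayes, no replicate block) was fitted to the 45592 identifiers at or above the 25th percentile of the mean, with Benjamini-Hochberg adjustment. It was tested on simulated data. The labels number the arrays 1 and 2 in both groups without naming a shared batch, and the replicate differences of the groups correlated at r = -0.05 over 609 members. P-values therefore rest on the spread between these arrays alone, which may be technical.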

Additional observations from a re-analysis of the deposited data

How the results depend on the processing

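Where the replicate number was used as a block, keeping only the comparisons of same-numbered arrays, 9 windows were higher and 3 lower of 15, 11 gene-order windows were higher, and limma with the block called 0 members. Of the 15 windows, 8 were higher in the main setting; this became 16 of 30 with windows of about 20, 5 of 8 with about 80, and 3 of 15 on values not centred (numbers 213 to 398 and 972 to 1363). The 2 lower windows became 4 of 30 with windows of about 20, 0 of 8 with about 80, 1 of 11 at a mean of at least 7, 0 of 16 with every row counted, 1 of 16 with windows moved along, 0 on values not centred and 1 with quantile normalization. Leaving out 1 array gave 9 to 11 higher windows and 2 to 4 lower ones, 4 without vector replicate 1, where fewer comparisons have to hold. Higher gene-order windows, 10 of 20, fell to 5 on values not centred and were 13 to 14 with an array left out.

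The chromosome 7 median of 0.07 moved to 0.0458 when arrays were centred without chromosome 1, to 0.0195 over every identifier above the 25th percentile, and ranged from 0.06 to 0.09 with an array left out. The short-arm median of 0.24 was 0.2152 when centred without chromosome 1, 0.23 on values not centred (comparisons 0.09 to 0.37), and 0.22 to 0.28 with an array left out. The long-arm median of 0.0033 took the other sign at a mean of at least 5 (-0.0005), on values not centred (-0.0095) and centred without chromosome 1 (-0.0233), was 0.0066 with quantile normalization, and ranged from 0.0067 to 0.024 with an array left out, so its sign is not settled. Apart from the effects of construction named here, the cause of these shifts was not tested. Of 196 alternative values for the 20 named identifiers, 0 changed sign and 10 moved by more than the spread between replicates. limma called 0 members under each alternative tried. The variant short-arm, long-arm and gene-order values were chosen after seeing the data.

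The chromosome and its runs were picked on this same contrast, the arms were defined from gene names for 54.8% of members, and the labels were not borne out by the STMN1 identifier. The table gives no signal over background, so dim rows cannot be told from background, and 2 arrays per group leave differences between clones, cultures and treatments inseparable.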
